A study of Rattus norvegicus with 2 samples.

Results

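Transporters and ion channels were taken as the set of circular RNAs (circRNAs) whose host gene name starts with the symbol of a solute carrier (Slc, Slco), an ABC protein (Abca to Abcg), an ATPase (Atp followed by a digit) or a channel family (Kcn, Cacn, Scn, Clcn, Clic, Ano, Trpc, Trpm, Trpv, Itpr, Ryr, Aqp, Cftr, Piezo, Tmc). The rule used names only and no measured value. It found 118 of the 4734 listed circRNAs, which is 2.49%, from 78 of 2502 host gene names. Of these, 47 circRNAs from 38 hosts belonged to solute carriers, 26 from 13 hosts to ATPases, 27 from 16 hosts to channels and 18 from 11 hosts to ABC proteins. No junction of an aquaporin, Cftr, an inositol trisphosphate receptor or a ryanodine receptor was among them. The names Abce1 and Slc4a1ap matched the rule although their products are not transporters, and they were kept in the counts.

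Lung tissue of Sprague-Dawley rats was sequenced as 1 Sham library and 1 LPS library. The LPS group modelled acute lung injury (ALI) and received lipopolysaccharide at 2 mg/kg as a spray into the trachea, whereas the Sham group received PBS, and lungs were taken at 24 h. The study used 12 rats, and how many entered each library is not given in the sources used here. With 1 library per group no difference below has a replicate check and no p-value is given. Each value is the number of reads across a back-splice junction, the point where the end of an exon is joined to the start of an upstream one, per 1000000 junction reads of the library (CPM).

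Solute carriers move sugars, amino acids, ions and metabolites down or against gradients without using ATP directly, ATPases and ABC transporters spend ATP to pump, and channels open a pore for passive ion flow. In the lung, sodium and chloride transport across the alveolar epithelium keeps the air space free of liquid, and calcium and potassium channels set the tone of vessels and airways. A circRNA shares its exons with the mRNA of its host but has no free ends, and its level need not follow that of the protein the host encodes.

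Depth limited what could be compared. The Sham library held 38112 junction reads and the LPS library 52505, so that 1 read was worth 26.2 CPM in Sham and 19.0 CPM in LPS. A value at the deposited fill-in of 0.001 stands for 0 or 1 read, and is given here as 0 reads. True levels up to 124 CPM (Sham) or 90.4 CPM (LPS) remain possible there (one-sided 95% Poisson limit for 1 hidden read). A fold written as at least a value divides the CPM of the other library by this limit and leaves out the counting error of that CPM. Among the 118 circRNAs, 79 (66.9%) did not reach 10 reads when the libraries were added, and 24 had only 2. All intervals are 95% intervals of counting error (Wilson for a level, exact conditional binomial for a ratio of LPS to Sham), and since copies made by PCR carry no identifiers and cannot be told from separate molecules, the true error is larger. Marker hosts in the same libraries showed lung vessel and matrix transcripts, with 97 and 68 reads over 4 of 7 endothelial hosts and 401 and 210 over 3 of 7 smooth muscle and fibroblast hosts in Sham and LPS. None of 11 cardiac, 5 airway and 6 lymphocyte marker hosts was listed, whereas 2 of 6 neutrophil hosts were, with 0 reads in Sham and 28 in LPS. For alveolar epithelium, the type 1 markers Rtkn2 and Emp2 had 53 and 112 and 3 and 0 reads, and the type 2 markers Sftpc, Sftpd and Abca3 had 5 and 0, 2 and 0, and 0 and 3, while 1 of 6 macrophage hosts had 2 and 4 reads and 2 of 5 erythroid hosts had 15 and 5.

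The transporter and channel hosts together took 664 Sham reads, 1.74% of the library (1.62 to 1.88%), and 809 LPS reads, 1.54% (1.44 to 1.65%). Their summed level was 17422 CPM in Sham and 15408 CPM in LPS, a ratio of 0.884 (0.797 to 0.981). Most single circRNAs were seen in 1 library, 32 in Sham and 39 in LPS, while 47 (39.8%) were seen in both, against 37.1% of all circRNAs. The 71 found in 1 library had a median of 3 reads and at most 19. At a 2-fold threshold with 0.5 reads added, 42 of the 118 circRNAs (35.6%) were higher in LPS and 47 (39.8%) were lower, against 35.7% and 43.3% of all 4734 circRNAs. These shares lie near the background and single out nothing about transporters. Of the 39 members with at least 10 reads, 6 (15.4%) were higher and 12 (30.8%) lower by this rule, against 29.1% and 29.6% of the 1580 circRNAs of that depth.

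Over host genes, with the junctions of each host summed, 21 of 78 (26.9%) were at least 2-fold higher in LPS and 26 (33.3%) at least 2-fold lower, against 31.1% and 38% of all 2502 host names. The balance moved with the scale, to 26 higher and 24 lower when the median shared circRNA set the scale, and to 20 and 32 when only shared circRNAs with at least 50 reads did. In the 33 hosts with at least 10 reads over both libraries, which held 85.7% of the reads, 3 (9.09%) were at least 2-fold higher and 10 (30.3%) at least 2-fold lower. The background at that depth was 25.0% higher and 26.6% lower over 1206 host names. Their median log2 ratio was -0.36, against -0.11 for all hosts of that depth. The 3 higher hosts were the solute carriers Slc25a16, Slc44a1 and Slc27a6. Among the 10 lower hosts were 4 solute carriers (Slc16a10, Slc27a1, Slc4a1 and Slc38a1), 2 ATPases (Atp2c1 and Atp6v0a1), 3 potassium channels (Kcnh3, Kcnq1 and Kcnk2) and 1 ABC transporter (Abcb1a). The ratio intervals of Slc4a1, Slc38a1, Atp2c1 and Atp6v0a1 include equal levels.

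**Figure D1:**
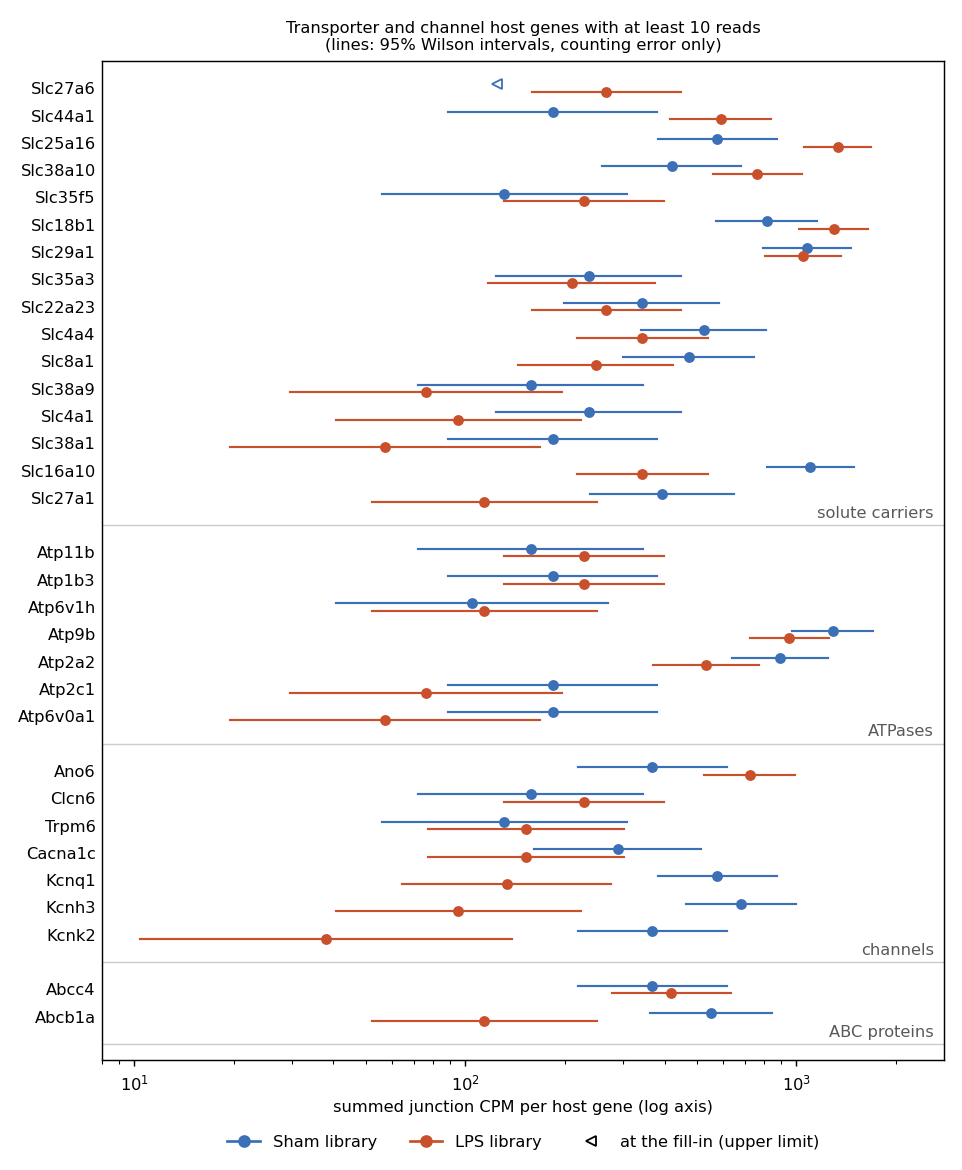
Summed junction CPM (log axis) of 32 of the 33 transporter and channel host genes with at least 10 reads, in the Sham library (blue) and the LPS library (orange), ordered within each class by the ratio of LPS to Sham; lines are 95% Wilson intervals of counting error and the open triangle is an upper limit at the fill-in. Kcnk2, Kcnh3, Kcnq1, Abcb1a and Slc16a10 have intervals that do not overlap with the Sham value higher, and Slc25a16 and Slc44a1 have intervals that do not overlap with the LPS value higher. The share of all host names whose intervals do not overlap was not counted, so this list only describes the drawn hosts.

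The classes differed in their sums. Solute carriers had 306 Sham reads and 440 LPS reads, or 8029 CPM (7181 to 8976) and 8380 CPM (7636 to 9197), a log2 ratio of 0.06 whose sign changes with the scale, from -0.38 to 0.52 under the other scales tried. ATPases had 133 reads in each library, or 3490 CPM (2946 to 4134) for the Sham group and 2533 CPM (2138 to 3001) for the LPS group, a ratio of 0.726 (0.566 to 0.930). A scale set by the median circRNA shared by both libraries puts that ratio at a log2 value of 0, since equal read numbers are then equal levels. Channels had 120 Sham reads and 95 LPS reads, or 3149 CPM (2634 to 3763) and 1809 CPM (1480 to 2211), and were 1.74-fold lower in LPS (ratio 0.575, 0.434 to 0.758). The channel sum was lower in LPS on every scale tried, with log2 ratios between -1.24 and -0.34, but this lay in the potassium channels. The 11 other channel hosts had 50 Sham reads and 79 LPS reads, or 1312 CPM and 1505 CPM, a ratio of 1.15 (0.795 to 1.67). ABC proteins had 105 and 141 reads, or 2755 CPM (2277 to 3334) and 2685 CPM (2278 to 3166), a log2 ratio of -0.04 whose sign also changes with the scale, from -0.48 to 0.43. Slc18b1, the leading solute carrier, supplied 13.3% of the reads of its class. Without the host with the most reads in its class, the log2 ratio of the ABC sum was -0.58.

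**Figure D2:**
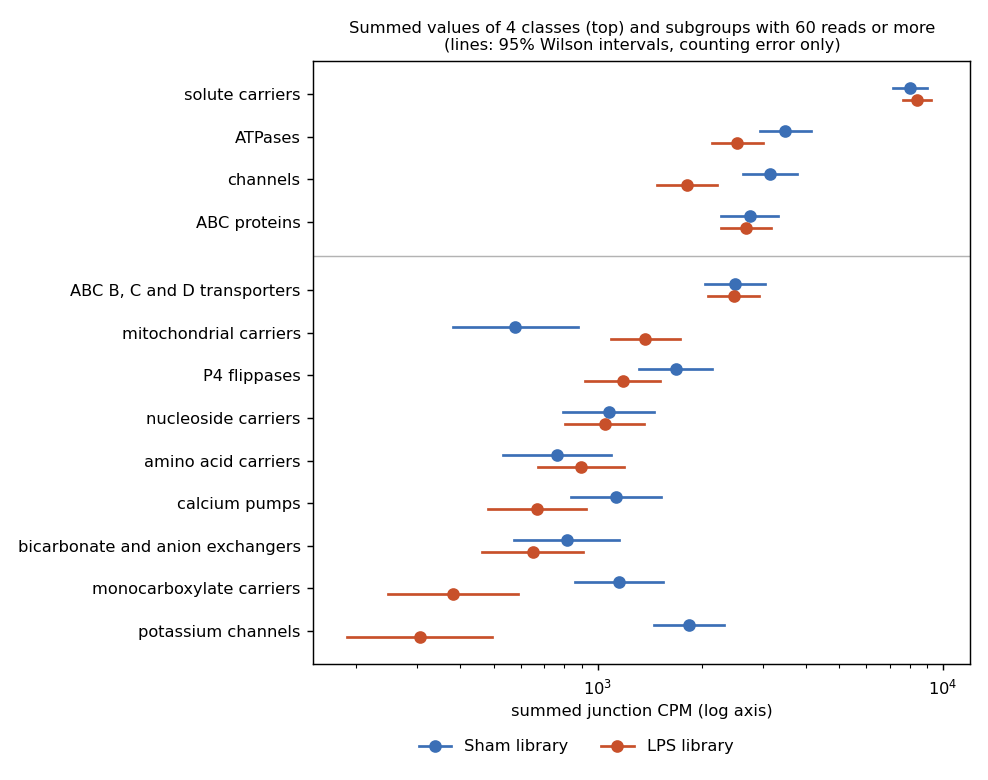
Summed junction CPM (log axis) of the 4 classes above the grey line, and of the named subgroups with at least 60 reads below it, in the Sham (blue) and LPS (orange) libraries with 95% Wilson intervals of counting error. Solute carriers outside a named subgroup are not drawn as a subgroup. Potassium channels (1837 CPM in Sham and 305 CPM in LPS) and monocarboxylate carriers (1154 and 381 CPM) were separated with Sham higher, and mitochondrial carriers (577 and 1371 CPM) with LPS higher. Each of these carrier sums rests on 1 host. Slc16a10 gave 42 of 44 Sham reads and 18 of 20 LPS reads of the monocarboxylate carriers. Slc25a16 gave 22 of 22 and 70 of 72 of the mitochondrial carriers.

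Potassium channels were the subgroup with the lowest LPS level relative to Sham among the subgroups with at least 60 reads. Their 5 hosts, with 9 junctions, had 70 Sham reads and 16 LPS reads, or 1837 CPM (1454 to 2320) and 305 CPM (188 to 495), 6.03-fold lower in LPS (ratio 0.166, 0.0899 to 0.289). The log2 ratio of -2.59 stayed between -3.04 and -2.13 under every alternative tried, including the sum without Kcnh3. Of the 5 hosts 4 were at least 2-fold lower in LPS, against 38% of all host names, or 3 of the 3 with at least 10 reads against 26.6%. The subgroup was singled out by these values, so the shares are a description. The exception was Kcnma1, the pore of the large-conductance calcium-activated channel of smooth muscle, which had 0 reads in Sham and 2 in LPS.

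Kcnh3, a voltage-gated channel of the ether-a-go-go family best known from forebrain, had 1 junction, chr7:140828965-140829261 (coordinates as deposited, rn6), spanning 297 bases. It had 26 Sham reads and 5 LPS reads, or 682 CPM (466 to 999) and 95.2 CPM (40.7 to 223), 7.16-fold lower in LPS (ratio 0.14, 0.04 to 0.37). The deposited table lists small RNA family names for this junction beside Kcnh3.

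Kcnq1 encodes the slowly activating channel of heart and of transporting epithelia, where it drives the exit of potassium that accompanies chloride secretion. Its 3 junctions summed to 22 Sham reads and 7 LPS reads, or 577 CPM and 133 CPM, 4.33-fold lower in LPS (ratio 0.23, 0.08 to 0.56). All 7 LPS reads and 16 of the Sham reads fell on chr1:216560642-216566201. The other junctions started together at 216370170 and had 4 and 2 Sham reads with 0 in LPS. One of them spanned 196032 bases to the same end as the main junction.

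Kcnk2, the mechanically gated TREK channel with tandem pores that sets resting potential, had 14 Sham reads and 2 LPS reads over 3 junctions. That is 367 CPM in Sham and 38.1 CPM in LPS, a ratio of 0.10 (0.01 to 0.45). The junction with reads in both libraries was chr13:107733302-107772361, with 8 and 2 reads, which also lists small RNA names. Another, chr13:107733302-107749528, shared its start with that junction and its end with chr13:107745993-107749528. Kcnip3, a calcium-binding accessory protein of A-type channels, had 8 Sham reads at chr3:120025666-120026865 and was at the fill-in in LPS, at least 2.32-fold lower there. All 3 junctions of Kcnq1 and all 3 of Kcnk2 were lower in LPS.

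Several hosts that mark vessels and matrix were lower in LPS beside the potassium channels. The endothelial markers Tek and Emcn had 18 and 21 Sham reads but 2 and 6 LPS reads. Vwf was lower by less, with 58 and 56 reads, or 1522 and 1067 CPM, whereas Ptprb had 0 and 4 reads. The collagen gene Col3a1 had 70 Sham reads and 2 LPS reads, and the elastin gene Eln had 331 and 206, whereas Pdgfra had 0 and 2. In bulk tissue, fewer cells of a type and less RNA per cell cannot be told apart, and the part of these cell types in the channel values was not tested.

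The other channels did not share 1 direction. Ano6, a calcium-activated scramblase that moves phosphatidylserine to the cell surface and also conducts ions, was the channel host with the most reads. It had 14 Sham reads and 38 LPS reads, or 367 CPM (219 to 617) and 724 CPM (527 to 993), a ratio of 1.97 (1.04 to 3.94), just under the 2-fold threshold. Both of its main junctions end at the same base, and each was higher in LPS, with 7 and 20 reads at chr7:137216397-137256074 and 7 and 16 at chr7:137226465-137256074. Without Ano6 the log2 ratio of all channels was -1.36 instead of -0.80, and without the potassium channels it was 0.20.

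Cacna1c, the pore of the L-type calcium channel, had 11 Sham reads and 8 LPS reads, or 289 CPM and 152 CPM, a ratio of 0.53 (0.18 to 1.44) that includes equal levels. No single junction was shared, since 2 junctions had 7 and 4 reads in Sham only and another had 8 reads in LPS only. The 4 calcium channel hosts together had 18 and 12 reads, with a ratio of 0.484 (0.213 to 1.06). Clcn6, a chloride-proton exchanger of late endosomes, had 6 and 12 reads, or 157 CPM and 229 CPM. Trpm7 and Trpm6 were added after their values were seen. Trpm7, a divalent cation channel fused to a kinase, had 0 Sham reads and 7 LPS reads over 3 junctions, which gives no bound because each of them may hide a Sham read. Trpm6, a magnesium channel of the same family, had 5 and 8.

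Among ATPases, Atp9b had the most reads, and it had the most junctions of any member. It encodes a P4-type ATPase of the trans-Golgi network. Its 9 junctions on chromosome 18 summed to 49 Sham reads and 50 LPS reads, or 1286 CPM and 952 CPM, a ratio of 0.74 (0.49 to 1.12). The near-equal sums covered unequal junctions, since 4 of them were seen in Sham only, 4 in LPS only and 1 in both. The shared junction was chr18:77512807-77520779, with 27 Sham reads and 21 LPS reads. The largest difference was at chr18:77484239-77489468, with 0 Sham reads and 19 LPS reads, at least 2.91-fold higher in LPS. The other LPS-only junctions had 3, 3 and 4 reads, too few for a bound, and the Sham-only junctions had 4, 5, 5 and 8. Since the fill-in hides 0 or 1 read, a junction seen in 1 library on so few reads need not differ in level. Each of the 9 junctions shared an end with another. The 4 junctions that end at 77489468 had 8 Sham reads and 25 LPS reads together, whereas the 2 that end at 77484297, a lower coordinate, had 9 and 0. One of those, chr18:77477450-77484297, also lists the gene Dcp2.

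**Figure D3:**
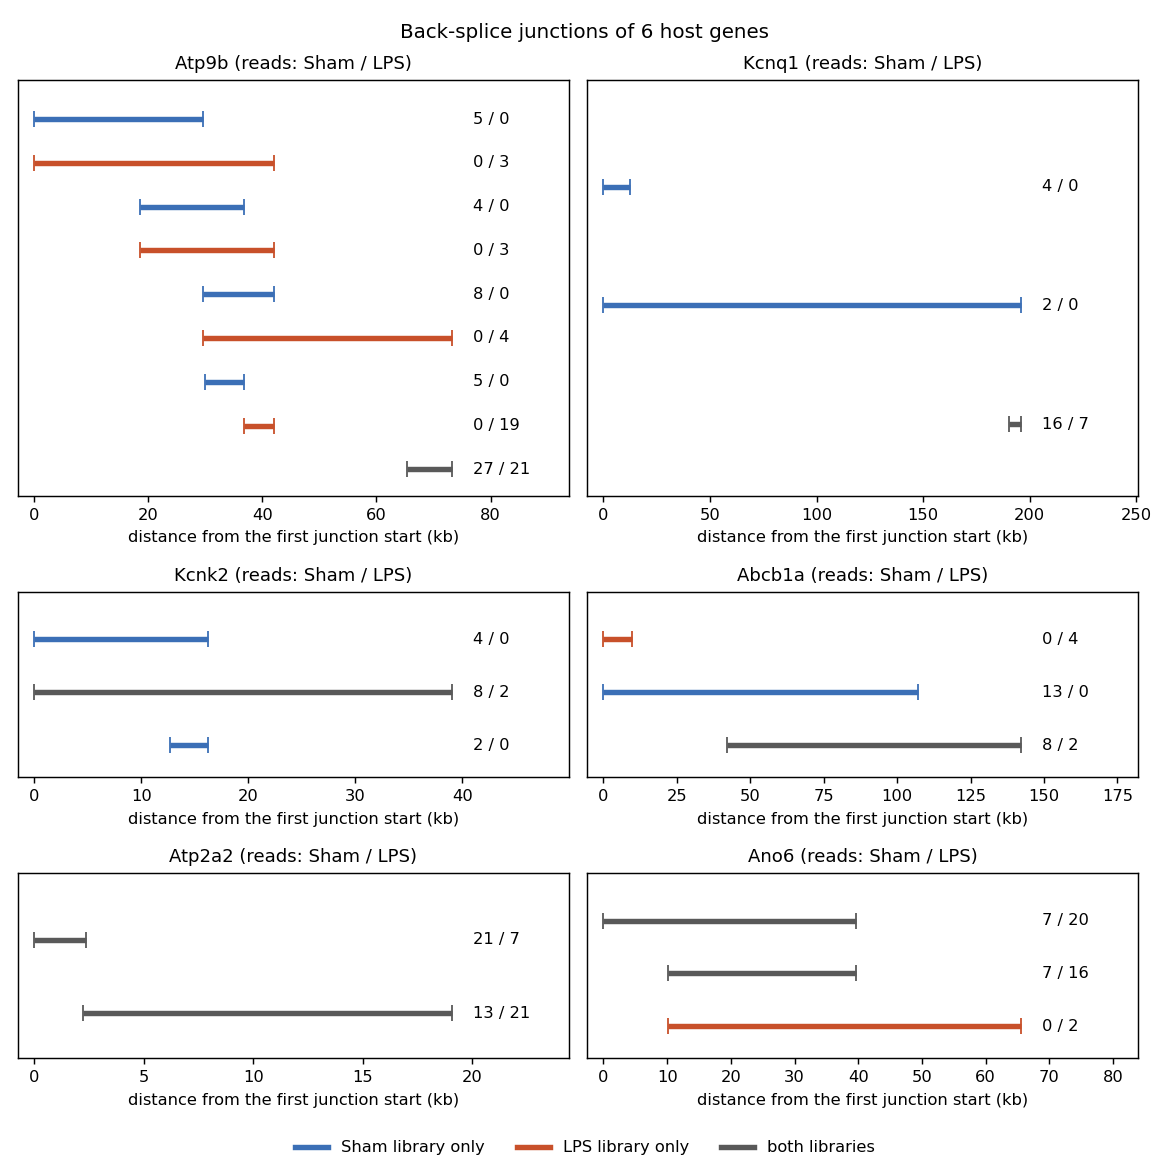
Back-splice junctions of 6 host genes drawn to scale as bars from start to end, with distance from the first junction start of that gene in kb on the horizontal axis and reads in the Sham and LPS libraries at the right (0 stands for the fill-in of 0 or 1 read); blue bars were seen in Sham only, orange in LPS only and grey in both. The 9 Atp9b junctions share ends, and most were seen in 1 library only, on few reads. The junctions of Kcnq1 and Kcnk2 had reads in Sham throughout.

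Atp2a2 encodes SERCA, the pump that refills the endoplasmic reticulum with calcium. It had 34 Sham reads and 28 LPS reads, or 892 CPM and 533 CPM, a ratio of 0.60 (0.35 to 1.02). The lower sum lay in chr12:39564849-39567224, with 21 and 7 reads and 4.13-fold lower in LPS, while chr12:39567086-39583928 had 13 and 21 reads, or 341 and 400 CPM. Atp2c1, the calcium and manganese pump of the Golgi, had 7 and 4 reads, or 184 and 76.2 CPM. Its log2 ratio of -1.20 was -0.74 on the scale of the median shared circRNA, and its ratio of 0.41 (0.09 to 1.63) includes equal levels. The 3 calcium pump hosts together had 43 and 35 reads, or 1128 CPM (838 to 1519) and 667 CPM (479 to 927), a ratio of 0.591 (0.367 to 0.945).

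The P4 flippases, a family whose best-known members move phosphatidylserine and phosphatidylethanolamine to the inner leaflet, had 64 and 62 reads and a ratio of 0.703 (0.488 to 1.01). Atp8a1 had 9 Sham reads at chr14:42079272-42104685 and was at the fill-in in LPS, at least 2.61-fold lower there. Atp11b went the other way in its point value, with 6 and 12 reads, or 157 and 229 CPM, but its ratio of 1.45 (0.50 to 4.71) includes equal levels. The higher value lay in a junction with 3 and 9 reads that also lists 19 small RNA names. With junctions of a single name only, the log2 ratio of Atp11b was -0.46 instead of 0.48. Atp1b3, a beta subunit of the sodium-potassium pump, had 7 and 12 reads, or 184 and 229 CPM, a ratio of 1.24 (0.45 to 3.73). The proton pump of lysosomes and secretory vesicles had 15 and 19 reads over 4 hosts, or 394 and 362 CPM. Atp6v0a1 had 7 and 3 reads, 3.21-fold lower in LPS, but its ratio of 0.31 (0.05 to 1.36) includes equal levels. Atp6v1h had 4 and 6 reads. None of the 7 ATPases with at least 10 reads was at least 2-fold higher in LPS and 2 (28.6%) were at least 2-fold lower, against the background of 25.0% and 26.6%. Of all 13 ATPase hosts, 2 (15.4%) were higher and 3 (23.1%) lower, against 31.1% and 38%. These hosts are too few to single out the class.

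Solute carriers included the hosts that were higher in LPS. Slc25a16, a carrier of the inner mitochondrial membrane, had 22 Sham reads and 70 LPS reads, or 577 CPM and 1333 CPM, a ratio of 2.31 (1.41 to 3.92). Nearly all of this lay on chr20:27278618-27279990, with 18 and 70 reads. The other junction, chr20:27293025-27296277, went against it, with 4 Sham reads and 0 in LPS. On the scale set by shared circRNAs with at least 50 reads, the log2 ratio of Slc25a16 was 0.74 instead of 1.19, under the 2-fold threshold. Slc44a1, which carries choline for membrane phospholipid synthesis, had 7 and 31 reads, or 184 CPM and 590 CPM, a ratio of 3.21 (1.39 to 8.65). Of its LPS reads, 17 were at chr5:70368641-70368939, where Sham was at the fill-in, at least 2.60-fold higher in LPS, and 14 were at chr5:70292288-70302136, where Sham had 7. The former also lists 13 small RNA names, and with junctions of a single name only the log2 ratio of Slc44a1 was 0.49 instead of 1.61, under the 2-fold threshold.

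Slc18b1, a vesicular polyamine transporter, had 31 and 68 reads, or 813 CPM and 1295 CPM, a ratio of 1.59 (1.03 to 2.52). Its junctions differed, as chr1:22735614-22738713 had 4 Sham reads and 36 LPS reads, a ratio of 6.53, and chr1:22707360-22707595 had 27 and 32, or 708 and 609 CPM. Slc38a10, of the neutral amino acid transporter family, had 16 and 40 reads at chr10:109310593-109311350, or 420 CPM and 762 CPM, with a ratio of 1.81 (0.99 to 3.47). Slc35f5, of the nucleotide sugar carrier family, had 5 and 12 reads, a ratio of 1.74.

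The fatty acid transport proteins stood on opposite sides. Slc27a6 had 0 Sham reads and 14 LPS reads (267 CPM) at chr18:53631853-53634526, at least 2.14-fold higher in LPS. Slc27a1, which is known from muscle and fat, had 15 and 6 reads at chr16:20009431-20009965, or 394 CPM and 114 CPM, 3.44-fold lower in LPS (ratio 0.29, 0.09 to 0.79). The difference between these 2 hosts was not tested.

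Slc16a10 had the largest number of reads among the lower carriers. It transports aromatic amino acids and belongs by sequence to the monocarboxylate transporter family. Its junction chr20:45189472-45193661 had 42 Sham reads and 18 LPS reads, or 1102 CPM (815 to 1489) and 343 CPM (217 to 542), 3.21-fold lower in LPS (ratio 0.31, 0.17 to 0.55). Slc8a1, the sodium-calcium exchanger of the plasma membrane, had 18 and 13 reads at chr6:4298605-4315062, or 472 CPM and 248 CPM, with a ratio of 0.52 (0.24 to 1.13) that includes equal levels.

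Slc29a1, the equilibrative carrier that takes up adenosine, had near-equal sums, with 41 Sham reads and 55 LPS reads, or 1076 CPM and 1048 CPM, a ratio of 0.97 (0.64 to 1.50). Its junctions end at the same base and differed in share, with 30 and 27 reads at chr9:17795244-17796133 and 11 and 28 at chr9:17795708-17796133. The remaining carriers with at least 10 reads were also added after their values were seen. The bicarbonate cotransporter Slc4a4 had 20 and 18 reads, or 525 and 343 CPM. Slc22a23 had 13 and 14, or 341 and 267 CPM, and Slc35a3, of the nucleotide sugar family, had 9 and 11, or 236 and 210 CPM. By CPM each was lower in LPS, with ratios of 0.65, 0.78 and 0.89 whose intervals include equal levels. The lower side also held Slc38a1 with 7 and 3 reads (ratio 0.31, 0.05 to 1.36) and Slc38a9 with 6 and 4 (0.48, 0.10 to 2.04). Slc4a1, the anion exchanger of red blood cells, had 9 and 5 (0.40, 0.11 to 1.34).

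Other carriers at the fill-in in 1 library had few reads and are given without a fold. Slc41a2, of a magnesium transporter family, had 0 and 8 reads, and Slc26a8, of the anion exchanger family, had 0 and 7. Slco2a1, the prostaglandin transporter, had 0 and 7 over 2 junctions. On the other side, Slc35e3 had 7 and 0 reads. The 4 sodium-proton exchanger hosts together had 13 and 6 reads, a ratio of 0.335 (0.104 to 0.945).

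Among ABC proteins, Abcb1a, the multidrug exporter P-glycoprotein of barrier endothelium, had 21 and 6 reads, or 551 CPM (360 to 842) and 114 CPM (52.4 to 249), 4.82-fold lower in LPS (ratio 0.21, 0.07 to 0.53). Of the Sham reads, 13 lay on chr4:22238040-22345152, which was at the fill-in in LPS and at least 3.78-fold lower there. Without it the log2 ratio of Abcb1a was -0.85 instead of -2.19. A junction with the same start, chr4:22238040-22247660, had 0 Sham reads and 4 LPS reads. Abcc4, which exports cyclic nucleotides and organic anions, had 14 and 22 reads, or 367 CPM and 419 CPM, with its 3 junctions at 5 and 7, 5 and 3, and 4 and 12 reads.

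Junctions of the same host could lie on different sides. Of 24 hosts with more than 1 junction, which held 64 junctions, 8 had all junctions on the same side of a log2 ratio of 0 and 16 (66.7%) had junctions on both sides, against 61.9% of the 922 host names with more than 1 junction in the whole table. In 10 hosts (41.7%) at least 1 junction was 2-fold higher and at least 1 was 2-fold lower in LPS, against 46.1%. These shares lie near the background. In all, 37 junctions in 13 hosts shared an end with another junction of the same host. The junctions of all members spanned 141 to 196032 bases of the genome, with a median of 5566, against 4394 over all circRNAs. Spans of at most 500 bases made up 14.4% of members and 12.5% of all circRNAs, and spans of at least 25000 bases made up 13.6% and 11.1%. Of the 16 members with such long spans, 7 were channels, 6 ATPases, 2 ABC proteins and 1 a solute carrier. The median spans were 3253 bases for solute carriers, 7411 for ATPases, 7107 for channels and 6855 for ABC proteins. A span counts the genome between the ends of a junction, introns included, and is not the length of the circRNA.

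Wider pathway lists placed the members among their partners. Of 22 genes of alveolar fluid transport and its regulators, 7 had a listed circRNA, with 84 Sham reads and 64 LPS reads in all, or 2204 and 1219 CPM. At the 2-fold threshold 1 of the 7 was higher and 3 were lower, against 31.1% and 38% of all host names. The sodium channel subunit Scnn1a had 3 and 0 reads, and the other channel subunits, the sodium pump alpha subunits, Cftr and the aquaporins had none listed. The regulators held most reads, with the ubiquitin ligase Nedd4l at 27 and 22 reads, or 708 and 419 CPM, and the kinase Wnk1 at 22 and 13, or 577 and 248 CPM, a log2 ratio of -1.20. The median log2 ratio of the list was -0.75, against -0.32 over all host names.

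Of 31 genes of calcium store release, refilling and mitochondrial uptake, 9 were listed, with 81 and 73 reads, or 2125 and 1390 CPM. At the 2-fold threshold 1 was higher, 3 were lower and 5 lay between, where 31.1% of all host names were higher and 38% lower. The median log2 ratio of the list was -0.74. Beside Atp2a2, Atp2c1 and Slc8a1 the list held Micu2, a gatekeeper of the mitochondrial calcium uniporter, at 8 and 9 reads, or 210 and 171 CPM. The calmodulin kinase Camk2d had 8 and 5 reads, or 210 and 95.2 CPM. Of 18 genes of P4 flippases, their partners and scramblases, the 4 listed were Atp9b, Atp11b, Atp8a1 and Ano6, with a median log2 ratio of 0.02. Of 24 genes of lysosomal and vesicular acidification, 6 were listed, with 27 and 47 reads, or 708 and 895 CPM, and a median log2 ratio of 0.27. Wdr7, which helps to assemble the proton pump, had 7 and 19 of these, or 184 and 362 CPM. The genes of these lists were too few to single out any list from the background.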

How the data were processed

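The deposited table gives each circRNA 1 value for Sham and 1 for LPS, headed TPM. The values themselves show CPM, which the authors scaled from back-splice junction reads with no length term, with 0 or 1 read replaced by 0.001. Every value above the fill-in came out as a whole number of reads within 0.01. The submitters' processing notes name rn6, BWA and CASAVA 1.8. The circRNA caller and the pooling of rats are not given in the sources used here. The labels describe removal of ribosomal RNA and RNase R digestion before sequencing, whereas the methods describe cDNA made with a SmartPCR kit and cut with RsaI. Which was used for these libraries is not clear, and either can change the level of a circRNA without a change in the tissue. Reads spanning a junction are counted whatever the length of the circle, so levels of different genes are junction levels and not expression per length.

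Junction CPM were summed per host under the first name that matched, with 0.001 as zero, and per class. Ratios carry exact conditional binomial intervals and levels Wilson intervals. A difference counted from 2-fold with 0.5 reads added. A host or junction at the fill-in with enough reads in the other library gave a bound from the Poisson limit. The background applies the same rule to all circRNAs or host names. Each of the 78 host symbols matched a RefSeq gene on the same chromosome. Hosts without a gene name could be missed, since 391 circRNAs list only small RNA families and 4 list no name. Among members, 12 circRNAs also list small RNA names and 1 lists another gene.

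Some values of single host genes are not reported here. The members, lists and rules were chosen with earlier results of these data known. The named hosts were the 5 with the most reads in solute carriers, ATPases and channels and the 3 in ABC proteins, the 6 per direction with the largest fold among hosts of 10 reads or more that were seen in each library, the 4 per direction with the most reads among hosts at the fill-in in the other library, every list member with at least 10 reads, and the 2 main junctions of a host. With 1 library per group no test was run, and any spread between rats is unknown. In libraries simulated under the assumed scaling and fill-in rule, 4734 of 4734 read numbers were recovered. Of 200 circRNAs changed 4-fold there, 198 passed the 2-fold threshold, but they were drawn only from circRNAs with many expected reads. Most members have fewer reads, so the simulation does not show how well a fold is called among them. Work was done in Python 3.11.15 with scipy 1.17.1, pandas 2.3.3 and numpy 2.4.6, and plots with matplotlib 3.10.9. Alternatives were another scale, pseudocount, threshold, read minimum or fill-in value, single host names, names of transporters only, leaving out the leading host or junction, and circRNAs seen in both libraries. Those for the potassium channel sum, and the channel sum without it, were chosen after seeing the data.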

Additional observations from a re-analysis of the deposited data

How the results depend on the processing

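With at least 10 reads per circRNA, 6 circRNAs were at least 2-fold higher and 12 lower in LPS (42 and 47 with no minimum), and 3 and 10 hosts (21 and 26 with no minimum). With the fill-in counted as 1 read, 17 circRNAs and 10 hosts were higher, while 47 circRNAs and 26 hosts were lower. At 4-fold, 24 circRNAs and 10 hosts were higher, and 35 circRNAs and 18 hosts were lower. Scaled by the median ratio of the 1757 circRNAs seen in both libraries (log2 -0.46), the log2 ratios of the class sums were 0.52 for solute carriers, 0 for ATPases, -0.34 for channels and 0.43 for ABC proteins. Scaled by the 323 of these with at least 50 reads (log2 0.44), they were -0.38, -0.91, -1.24 and -0.48. On the first of these scales 48 circRNAs were higher and 43 lower, and on the second 41 and 54. Without the leading host, the log2 ratio was -1.36 for channels (Ano6 left out) and -0.58 for ABC proteins. Without the potassium channels, the log2 ratio of the channels was 0.20 instead of -0.80. The potassium channel sum stayed within its interval under the 7 alternatives run. Of 180 alternative values for 33 named hosts, 171 lay within the main interval, 8 moved and 1 reversed. Slc25a16 without its main junction went from 1.19 to -3.63, on 4 reads. No paired analysis was possible because there is only 1 library for Sham and 1 for LPS, and no replicate could be left out. Limits are the depth, as 79 of 118 circRNAs did not reach 10 reads, and the single library per group, as the intervals leave out variation between rats and library preparation.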
